A study of Mus musculus with 18 samples.

Results

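Collagen chain genes encode the polypeptides that wind in threes into the triple helices of connective tissue. They were taken as every row of the deposited table whose symbol is Col, a number, the letter a and a number, and 38 of the 12558 rows met this rule. The 38 comprised 11 chains of fibrillar collagens, 7 of fibril-associated collagens (FACITs), 6 of the basement membrane collagen type IV, 5 of the beaded filament collagen type VI, 2 of the multiplexins (types XV and XVIII), 2 of transmembrane collagens and 5 others (types VII, VIII, XXVI and XXVIII). A further 7 symbols of these classes (Col6a4, Col9a2, Col9a3, Col10a1, Col17a1, Col21a1 and Col25a1) were not analysed here. All 38 chains passed the filter of at least 1 CPM (reads relative to library size, as scaled by the authors) in at least 3 libraries and were tested.

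Total RNA from skeletal muscle of mice was sequenced in 6 groups of 3 libraries, which the labels number as biological replicates. The diets lasted 10 weeks. Wild-type animals ate normal chow (WT_NC), high-fat diet (HFD, WT_HFD), chow while drinking water with an agent named AQ (WT_NC_AQ) or HFD with AQ (WT_HFD_AQ). A separate pair of groups, both on HFD, held mice with a Nurr1 transgene (HFD_Nurr) and their wild-type controls (HFD_WT). The labels do not spell AQ out, and give neither its dose nor the promoter that drives the transgene, nor strain, sex or age. NURR1, encoded by Nr4a2, is a nuclear receptor without a known classical ligand that acts as a transcription factor.

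In muscle, type I and III collagens form the fibres of the sheaths around fibres and bundles, with type V chains built into the same fibrils, where they help to set fibril diameter. Type IV forms the sheet-like network of the basal lamina around each muscle fibre and capillary, and types VI, XV and XVIII lie at the border between that lamina and the surrounding matrix. Most of these chains are made by fibroblasts and, for type IV, also by vascular cells. In whole muscle, fewer cells of a type and less RNA per cell cannot be told apart.

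The libraries held 10404895 to 16082994 reads recovered from the deposited values, so that 3 reads corresponded to 0.191 to 0.277 CPM. Nr4a2 lay at 18.8 to 30.1 CPM in the transgenic libraries and at no more than 4.79 CPM elsewhere. Markers of muscle fibres were present throughout, with 8 of 8 in the table. One library stood apart for the collagens: the first library of HFD_WT was the highest of the 18 for 22 of the 38 chains. Chains above their own mean were 32 of 38 there, 33 in the first library of WT_HFD and 35 in the first of HFD_Nurr. The first library of HFD_WT also had the highest sums of tendon markers (1087 CPM, against 428 to 739 CPM in the others) and of adipocyte markers (252 against at most 159 CPM). Some results that include it are also given without it.

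The triple helix requires a glycine to recur as the first residue of every triplet, and in fibrillar collagen genes the helix is written in exons of 54 bases or multiples of 9. The first inner exon of 54 bases in which each of the 6 codon triplets opens with a glycine codon is shown for the fibrillar chain genes Col1a1 (exon 8) and Col5a3 (exon 15), and for Col22a1 (exon 13), a FACIT of the junction between muscle and tendon, from the GENCODE M21 transcripts (GRCm38). Each is given on the coding strand, with glycine codons in capitals.

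Col1a1, chr11:94939904-94939957, + strand: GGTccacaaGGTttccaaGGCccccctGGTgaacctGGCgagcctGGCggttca

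Col5a3, chr9:20801068-20801121, - strand: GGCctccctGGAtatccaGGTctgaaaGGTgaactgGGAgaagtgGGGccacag

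Col22a1, chr15:71952523-71952576, - strand: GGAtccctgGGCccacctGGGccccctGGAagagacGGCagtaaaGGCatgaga

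The exon count separated the classes without overlap between fibrillar chains and those of types IV and VI. Fibrillar genes had 21 to 33 inner exons of 54 bases, type IV genes 1 to 3 and type VI genes 2 to 3. FACIT genes ranged from 4 in Col12a1, Col14a1 and Col20a1 to 28 in Col22a1.

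Type IV genes lie in head-to-head pairs. Col4a1 and Col4a2 overlap by 22 bases at their starts on chromosome 8, Col4a4 and Col4a3 start 71 bases apart on chromosome 1, and Col4a6 and Col4a5 start 1308 bases apart on the X chromosome. The stretch from 150 bases before to 20 bases after the RefSeq start is shown for Col4a1 and Col4a2, whose levels are compared below as partners, and for Col5a3, which had the largest log2 differences of the 38 chains for AQ on HFD, for diet under AQ and for the interaction of AQ with diet (GRCm38.p6). Capitals mark CCAAT and GGGCGG on either strand, so ATTGG and CCGCCC are their reverse complements.

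Col4a1, chr8:11312807-11312976, - strand: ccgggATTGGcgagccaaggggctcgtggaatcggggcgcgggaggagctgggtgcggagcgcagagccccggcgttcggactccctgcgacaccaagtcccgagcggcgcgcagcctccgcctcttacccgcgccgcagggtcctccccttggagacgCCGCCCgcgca

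Col4a2, chr8:11312655-11312824, + strand: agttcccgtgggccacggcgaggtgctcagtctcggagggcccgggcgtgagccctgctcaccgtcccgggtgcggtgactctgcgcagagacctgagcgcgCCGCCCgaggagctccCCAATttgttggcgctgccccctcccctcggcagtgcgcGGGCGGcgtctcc

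Col5a3, chr9:20815048-20815217, - strand: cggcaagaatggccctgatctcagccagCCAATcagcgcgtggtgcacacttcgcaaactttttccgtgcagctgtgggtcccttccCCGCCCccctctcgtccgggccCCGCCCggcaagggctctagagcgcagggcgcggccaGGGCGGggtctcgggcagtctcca

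Of the 38 genes, 30 had 33 RefSeq windows of 250 bases before to 50 after a start. CCAAT stood in 10 of the 33 windows and in 37.4% of all 32851 windows of the same length, TATAAA in 3 and 13.6%, and GGGCGG in 20 and 35.7%, each searched on both strands. These matches describe letters only.

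Fibrillar type I and III chains were the most abundant per length. On the scale of mean CPM per kilobase of exon, Col1a2 stood at 92.7, Col3a1 at 71.7 and Col1a1 at 66.4. Next in that order came the basement membrane chains Col4a1 at 42.6 and Col4a2 at 32.5, with the type VI chain Col6a1 between them at 34.4. Col6a2 followed at 21.7, the multiplexin Col15a1 at 14.5, Col6a3 at 11 and the type V chains Col5a3, Col5a2 and Col5a1 at 9.80, 9.40 and 8.78. The spread over libraries was wide: Col1a1 ranged from 130 to 1080 CPM and Col3a1 from 175 to 684 CPM. The order of these 2 changed between libraries, with a ratio per exonic base of Col3a1 to Col1a1 of 0.675 to 1.67. In all 18 libraries Col1a1 stayed below Col1a2 (ratio at most 0.881). Col4a1 stayed above Col4a2 (at least 1.18) and Col6a1 above Col6a2 (at least 1.38).

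Less abundant chains formed a long tail. Col22a1 stood at 4.29 CPM per kilobase, Col7a1, the chain of the anchoring fibrils, at 3.36, Col18a1, the precursor of endostatin, at 3.05, Col8a1 at 2.36 and Col11a2 at 2.14. Col14a1, Col12a1 and Col16a1, which are FACITs, lay at 1.90, 1.87 and 1.81. Col24a1, Col8a2, Col20a1, Col11a1, Col4a5 and Col6a6 lay between 1.30 and 1.01. The remaining 12 chains were below 1: Col9a1, Col23a1, Col19a1, Col4a3, Col28a1, Col27a1, Col13a1, Col4a4, Col26a1, Col2a1, Col4a6 and, lowest at 0.0975, Col6a5. For Col2a1, Col6a5 and Col26a1 single libraries were at or under 3 reads or close to it, and their values carry a large counting error.

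**Figure D1:**
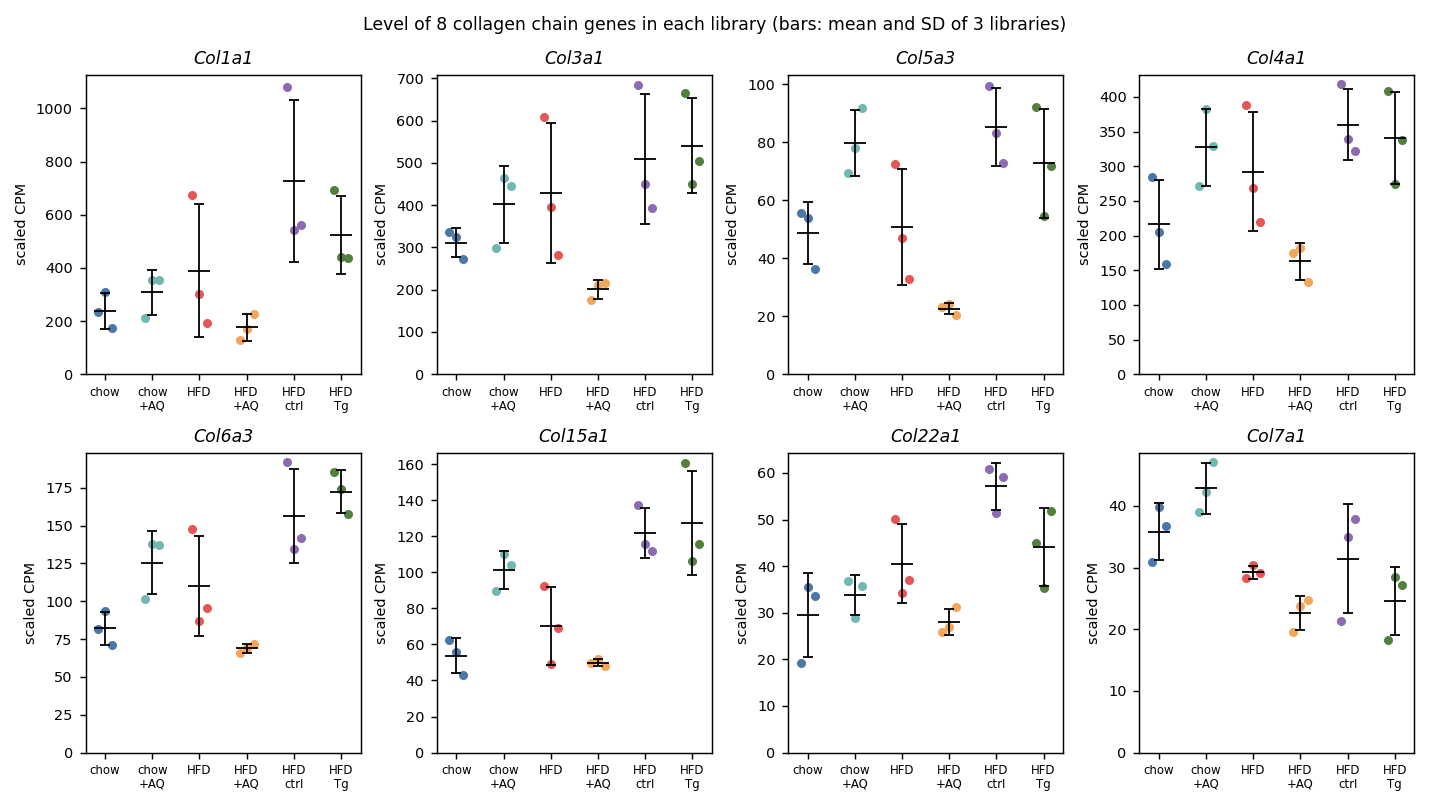
Scaled CPM of 8 collagen chain genes in each of 18 libraries, by group (chow, chow + AQ, HFD, HFD + AQ, controls of the transgene on HFD, transgenic on HFD); points are libraries and bars the mean and SD of 3. The 3 HFD + AQ libraries are the lowest or among the lowest for Col3a1, Col5a3, Col4a1 and Col6a3, and the first library of HFD_WT is the highest for Col1a1.

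Together the chains made up 0.147% of the reads in the first library of WT_HFD_AQ and 0.527% in the first library of HFD_WT. Summed collagen levels were 2110, 2206 and 1707 CPM on chow, 2091, 2940 and 2841 CPM on chow with AQ, 3975, 2360 and 1912 CPM on HFD, and 1388, 1593 and 1675 CPM on HFD with AQ. The HFD libraries with AQ were lower than every other library in this sum. In the second set, the sums were 5053, 3264 and 3244 CPM in the HFD_WT controls and 4193, 3033 and 3178 CPM in the transgenic libraries. Both groups of the second set lay above all but the first library of WT_HFD.

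**Figure D2:**
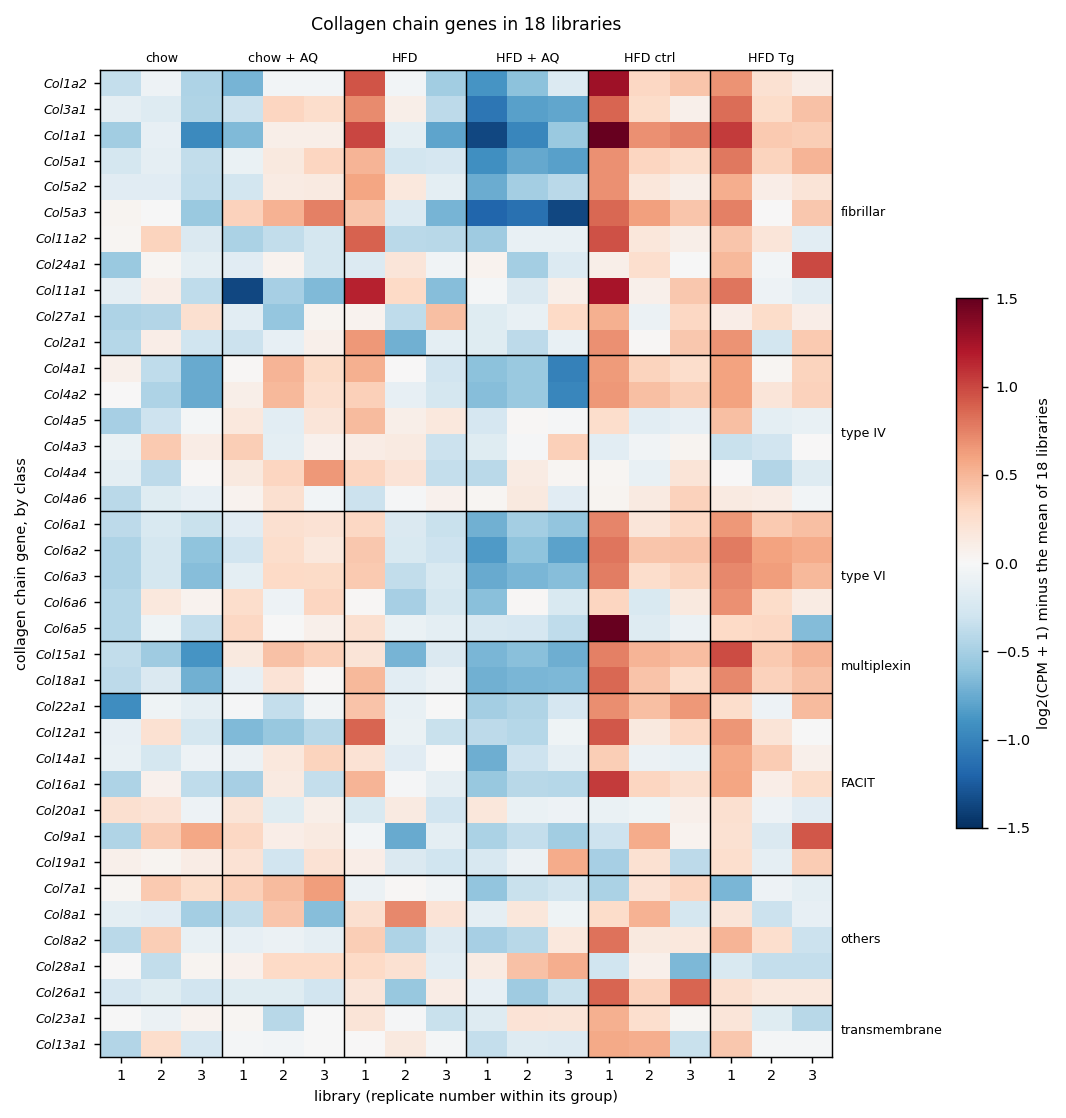
Deviation of log2(CPM + 1) from the mean of the 18 libraries for 38 collagen chain genes (rows, by class) in 18 libraries (columns, by group and replicate number). Red is above and blue below the gene's own mean. The 3 columns of HFD + AQ are mostly blue, with 4, 7 and 8 of 38 chains above their mean. The first columns of the HFD controls, of HFD and of the transgenic group are mostly red, with 32, 33 and 35 of 38.

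Collagens varied more between libraries of a group than most genes did. The median within-group SD of log2 values was 0.278 for the 38 chains and 0.151 for the 12524 genes tested. Among genes with a mean of at least 50 CPM the medians were 0.263 for 12 chains and 0.106 for 2820 genes. Col1a1 had the largest SD among the chains at 0.549, followed by Col11a1 at 0.538, Col6a5 at 0.500 and Col1a2 at 0.454, and Col20a1 (0.182) and Col4a6 (0.154) had the smallest. Fibrillar chains had a median of 0.352, type IV 0.243 and type VI 0.244.

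Across the 6 groups, 20 of the 38 chains differed in the limma F-test at an adjusted p of at most 0.05, where 20% of all genes tested did. They were 6 fibrillar chains (Col1a1, Col1a2, Col3a1, Col5a1, Col5a2 and Col5a3), the pair Col4a1 and Col4a2, Col6a1 to Col6a3, both multiplexins, the FACITs Col12a1, Col14a1, Col16a1 and Col22a1, and Col7a1, Col26a1 and Col28a1. The smallest limma adjusted p belonged to Col6a2 (0.000146), Col15a1 (0.000169) and Col5a3 (0.000264). Neither transmembrane chain passed: Col13a1 and Col23a1 both had an adjusted p of 0.406. The 4 less abundant type IV chains also did not pass.

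On HFD without AQ, no collagen chain changed past the threshold against chow. This comparison addresses the effect of diet in wild-type muscle. In limma 0 of 38 chains were called, 8 had an unadjusted p under 0.05 (9.53% of all genes had), and edgeR and DESeq2 also called 0. The share called among all genes was 0.0479%. The median log2 fold change of the chains was 0.23, with 29 above 0, against -0.00 over all genes. Without overlap between groups, 4 chains (Col4a5, Col5a2, Col8a1 and Col18a1) were higher on HFD, where 6.32% of all genes were, and 1 (Col7a1) was lower, where 6.10% of all genes were. Summed adipocyte markers did not overlap either, at 42.5 to 103 CPM on chow and 110 to 159 CPM on HFD, with 5 of the 6 above 0 and none called. Their part in the collagen values was not tested.

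Values within the classes on HFD against chow were spread around small differences. Among fibrillar chains, log2 fold changes with SE were 0.44 ± 0.18 for Col5a2, 0.40 ± 0.24 for Col3a1 and 0.55 ± 0.37 for Col1a1. Type IV chains gave 0.52 ± 0.17 for Col4a5, 0.39 ± 0.18 for Col4a2 and 0.44 ± 0.22 for Col4a1, and type VI chains 0.40 ± 0.17 for Col6a2, 0.39 ± 0.17 for Col6a3 and 0.24 ± 0.16 for Col6a1. The multiplexins Col18a1 and Col15a1 gave 0.52 ± 0.17 and 0.35 ± 0.18. FACIT values were 0.48 ± 0.19 for Col22a1, -0.26 ± 0.15 for Col20a1 and 0.38 ± 0.22 for Col16a1. The others were 0.66 ± 0.24 for Col8a1, -0.28 ± 0.18 for Col7a1 and 0.23 ± 0.18 for Col28a1, and the transmembrane chains 0.18 ± 0.22 for Col13a1 and -0.04 ± 0.18 for Col23a1. The first library of WT_HFD was the highest of its group for most chains, for example Col1a1 at 673 CPM against 303 and 193 CPM in the other HFD libraries, with 234, 308 and 173 CPM on chow. Without that library the median log2 fold change of the chains was 0.08.

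AQ on HFD gave lower values of most chains, none of which passed the limma test. The question is how AQ acts on muscle in mice on HFD. Of the 38 chains, 32 had a log2 fold change below 0, and 17 were lower in all 3 AQ libraries than in any HFD library, where 8.91% of all genes were. The median log2 fold change was -0.34, against 0.00 over all genes. With single libraries left out it ran from -0.48 to -0.25, and was smallest in size without the first library of WT_HFD. limma called 0 chains (0.0479% of all genes were called), and 16 had an unadjusted p under 0.05, where 11.8% of all genes had. edgeR called 0, and DESeq2 called 9, where it called 1.12% of all genes. With the replicate number as a block limma called 4, and 49 of all genes. The smallest limma adjusted p was 0.0751, for Col5a1. This comparison shares the HFD libraries with the diet comparison.

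Col5a1, a type V chain, lay at 36.7, 41.0 and 39.7 CPM on HFD with AQ and at 101, 58.1 and 58.7 CPM on HFD. The groups did not overlap, and the log2 fold change was -0.83 ± 0.17. For Col3a1 the values were 175, 210 and 217 CPM with AQ and 610, 397 and 283 CPM without (-1.03 ± 0.24, limma adjusted p = 0.0963). The HFD libraries were far apart, yet the lowest HFD library still exceeded the highest AQ library. For Col5a3 the difference was -1.06 ± 0.23 (adjusted p = 0.0830). Without the third library of WT_HFD, 8 chains were called, and without any other single library of the 2 groups 0 were.

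The other classes ran from clear separation to none on HFD with AQ. Type IV gave -0.71 ± 0.18 for Col4a2, -0.81 ± 0.22 for Col4a1 and -0.33 ± 0.17 for Col4a5. Type VI gave -0.71 ± 0.17 for Col6a2, -0.63 ± 0.17 for Col6a3 and -0.52 ± 0.16 for Col6a1. Col18a1 was at -0.77 ± 0.17 and Col15a1 at -0.44 ± 0.18. FACITs gave -0.58 ± 0.22 for Col16a1, -0.50 ± 0.19 for Col22a1 and -0.40 ± 0.17 for Col14a1. Col7a1 was at -0.36 ± 0.18, Col8a1 at -0.40 ± 0.24 and Col28a1 at 0.25 ± 0.18, and the transmembrane Col13a1 and Col23a1 at -0.29 ± 0.22 and 0.13 ± 0.18. Summed levels of the 6 adipocyte markers also did not overlap between these groups: 110 to 159 CPM on HFD and 47.0 to 96.3 CPM with AQ, with no marker at 0 in all libraries of a group. Sums of the 10 fibroblast markers were 2585 to 2929 CPM on HFD and 2258 to 2508 CPM with AQ, again without overlap. Muscle fibre sums were lower with AQ, at 134200 to 144400 against 147400 to 173600 CPM. Endothelial sums were higher, at 415 to 437 against 381 to 397 CPM. All 8 tendon and all 6 leukocyte markers were below 0, with medians of -0.24 and -0.34, but none was called and their sums overlapped. Their part in the collagen differences was not tested.

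On chow the direction was the other way for most chains, and Col15a1 rose with AQ. Col15a1 encodes the alpha chain of type XV collagen, a multiplexin of the outer basement membrane zone, and lies on chromosome 4 from 47208161 to 47313167 (GRCm38, + strand). It was at 62.6, 55.6 and 43.2 CPM on chow and at 89.4, 110 and 104 CPM on chow with AQ. All 3 AQ libraries were higher than every chow library. The means were 101 ± 11 CPM (SD, n = 3) with AQ and 53.8 ± 9.8 CPM without, 1.88 times higher, with a log2 fold change of 0.91 ± 0.18 and a limma adjusted p of 0.0286. It was the only chain called of 38, where 0.838% of all genes were called higher. The call was lost without the second or the third library of WT_NC or without any one library of WT_NC_AQ (adjusted p up to 0.104). In those fits 13 to 113 of all genes were called, against 139 in the main fit. Without the first library of WT_NC 2 chains were called, and 98 of all genes.

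Another 28 chains were above 0 with AQ on chow without passing the test, and the median of all 38 was 0.24 against -0.01 over all genes. Groups failed to overlap, with AQ higher, for 11 chains, where 10.9% of all genes did so. With AQ lower they failed to overlap for 3 chains (Col11a1, Col11a2 and Col12a1), where 1123 of 12524 genes did so. Type IV chains gave 0.68 ± 0.18 for Col4a2, 0.63 ± 0.22 for Col4a1 and 0.55 ± 0.19 for Col4a4. Type VI chains gave 0.60 ± 0.17 for Col6a3, 0.49 ± 0.17 for Col6a2 and 0.41 ± 0.16 for Col6a1. Among fibrillar chains Col5a3 was at 0.72 ± 0.23 and Col5a1 at 0.38 ± 0.17, and Col11a1, a chain best known from cartilage, at -0.70 ± 0.37. FACITs gave -0.50 ± 0.26 for Col12a1, 0.29 ± 0.17 for Col14a1 and 0.24 ± 0.19 for Col22a1. The others were 0.33 ± 0.18 for Col28a1, 0.25 ± 0.18 for Col7a1 and 0.08 ± 0.24 for Col8a1, and the transmembrane chains -0.12 ± 0.18 for Col23a1 and 0.11 ± 0.22 for Col13a1. Beside these, 2 of 7 endothelial markers rose with AQ on chow, where 0.838% of all genes were called higher. They were Vwf, by 0.45 ± 0.09 (limma adjusted p = 0.0251), and Cldn5, by 0.93 ± 0.21 (adjusted p = 0.0451). The endothelial sums were 302 to 395 CPM on chow and 399 to 477 CPM with AQ, and the sums of the 6 leukocyte markers 107 to 113 and 142 to 203 CPM, with all 6 above 0 and none called. The part of these cell types in the Col15a1 difference was not tested.

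The strongest collagen differences separated the diets when both groups received AQ. In this comparison 11 chains fell on HFD with AQ relative to chow with AQ and 0 rose, where 5.68% of all genes tested were called lower. They were the fibrillar chains Col3a1, Col5a1 and Col5a3, the type IV chains Col4a1 and Col4a2, the type VI chains Col6a1, Col6a2 and Col6a3, both multiplexins, and Col7a1. For 17 of 38 chains every library on HFD with AQ was below every library on chow with AQ, against 17.4% of all genes. The median log2 fold change was -0.28, against -0.00 over all genes. Leaving out any single library left 10 or 11 chains called. Of all genes 573 to 1130 were then called in either direction, against 1324 in the main fit.

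Col5a3 fell most. It encodes the alpha 3 chain of type V, which is known from muscle among other tissues, and lies on chromosome 9 from 20770050 to 20815067 (- strand). The values were 23.1, 24.3 and 20.4 CPM on HFD with AQ and 69.3, 78.1 and 91.8 CPM on chow with AQ. The groups lay far apart, at 22.6 ± 2.0 and 79.7 ± 11 CPM (SD, n = 3), a 3.52-fold difference of means. The log2 fold change was -1.77 ± 0.23, with a limma adjusted p of 0.000239. Its partner Col5a1, at 39.1 ± 2.2 against 77.4 ± 11 CPM, fell by 0.96 on the log2 scale (adjusted p = 0.00244). Col3a1 was at 175, 210 and 217 CPM against 298, 463 and 445 CPM (-0.98 ± 0.24, adjusted p = 0.0165), again without overlap.

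Of the 6 type IV chains, Col4a1 and Col4a2 fell, as did both multiplexins. Col4a1 was at 175, 182 and 132 CPM on HFD with AQ and at 271, 383 and 329 CPM on chow with AQ, and its log2 fold change was -1.0 ± 0.22 (limma adjusted p = 0.00778). Col4a2 gave the same figure, -1.0 ± 0.18, from 121 ± 18 against 242 ± 34 CPM. Col15a1 was at 49.8, 51.8 and 48.3 CPM against 89.4, 110 and 104 CPM (-1.0 ± 0.18, adjusted p = 0.00260). Col18a1 was at 12.1 ± 0.22 against 20.7 ± 2.5 CPM (-0.73 ± 0.17). The type IV chains Col4a3, Col4a4, Col4a5 and Col4a6 were not called.

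The 3 type VI chains that assemble into the same microfibrils were all lower. Col6a3 lay at 65.7, 69.3 and 71.5 CPM on HFD with AQ and at 101, 138 and 137 CPM on chow with AQ (-0.84 ± 0.17, limma adjusted p = 0.00496). Col6a2 fell by 0.80 and Col6a1 by 0.70 on the log2 scale (adjusted p = 0.00651 and 0.00876). Col7a1 fell by 0.89, with 19.6, 23.7 and 24.8 CPM against 39.0, 42.3 and 47.2 CPM (adjusted p = 0.00466). All 4 had groups that did not overlap.

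Other chains in this comparison did not pass. Col1a1 and Col1a2, the most abundant fibrillar pair, were at 176 ± 49 and 325 ± 79 CPM on HFD with AQ against 307 ± 84 and 403 ± 98 CPM on chow with AQ, and their libraries overlapped. Col11a1 was the only chain higher without overlap, where 15.8% of all genes were, at 7.15 ± 0.86 against 3.84 ± 1.4 CPM (0.79 ± 0.37, limma adjusted p = 0.190). FACITs gave -0.53 ± 0.17 for Col14a1 (adjusted p = 0.0581), -0.64 ± 0.29 for Col9a1 and -0.26 ± 0.19 for Col22a1. The transmembrane chains Col23a1 and Col13a1 were at 0.20 ± 0.18 and -0.23 ± 0.22. Leukocyte marker sums were 102 to 117 CPM on HFD with AQ and 142 to 203 CPM on chow with AQ, fibroblast sums 2258 to 2508 and 2542 to 2837 CPM, and neither overlapped. Muscle fibre sums were 134200 to 144400 and 157100 to 179000 CPM and mural sums 436 to 466 and 375 to 402 CPM, also without overlap. Of the 10 fibroblast markers 1 was called, Lum, which was higher on HFD with AQ, where 613 of the 12524 genes tested were called higher. Of the 7 mural markers Rgs5 and Kcnj8 were higher and Acta2 lower, and of the tendon markers Scx was lower, where 5.68% of all genes were called lower. Their part in the collagen differences was not tested.

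**Figure D3:**
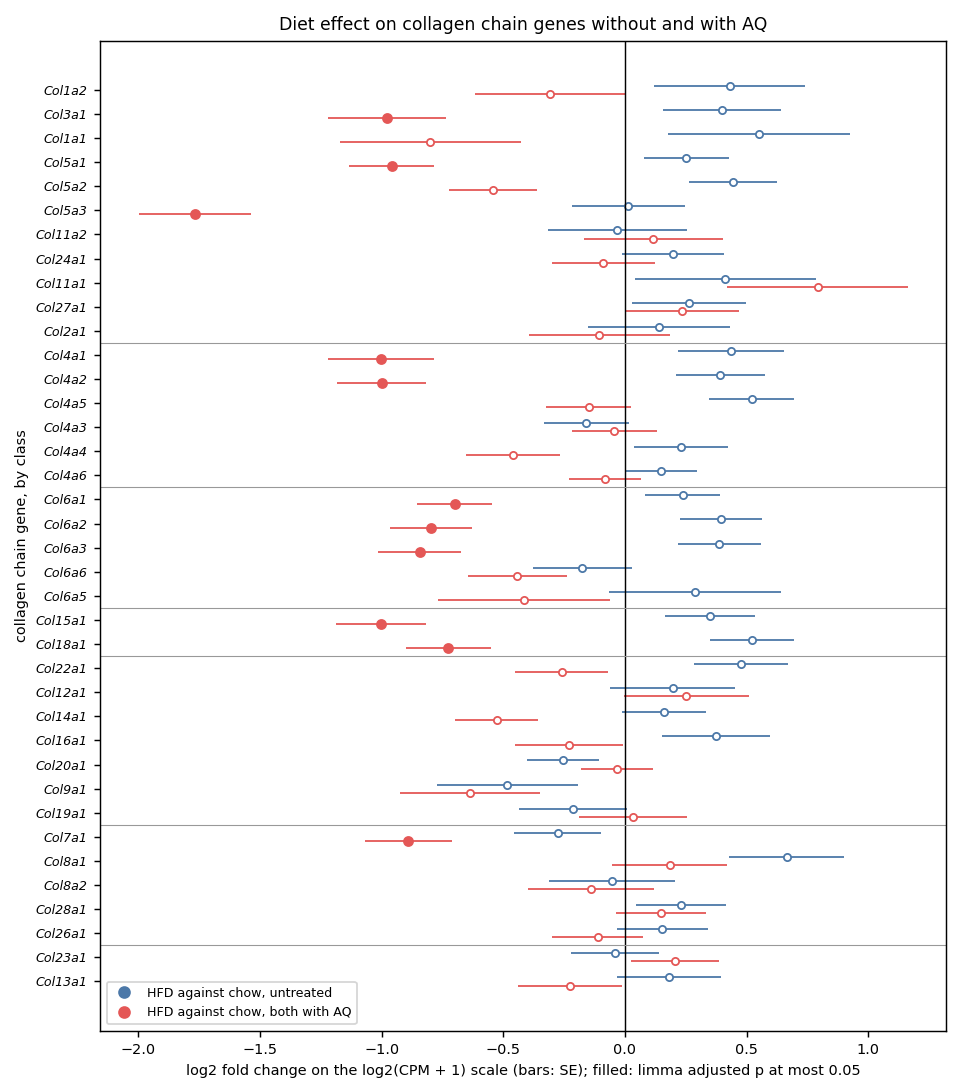
Log2 fold change (HFD over chow) with SE for 38 collagen chain genes by class, without AQ (blue) and with AQ (red); filled points passed limma's adjusted p of 0.05. No blue point is filled and 11 red points are, all left of 0, with Col5a3 farthest at -1.77.

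The effect of AQ itself differed between the diets for 8 chains. This interaction is the AQ difference on HFD minus that on chow, and 8 of 38 chains were called with a negative value, where 0.583% of all genes were called lower. Col5a3 was at -1.78 ± 0.33 (limma adjusted p = 0.0253), Col4a1 at -1.44 ± 0.31 and Col4a2 at -1.39 ± 0.26. Col15a1 was at -1.35 ± 0.26, Col18a1 at -1.25 ± 0.25, Col6a3 at -1.23 ± 0.24, Col5a1 at -1.21 ± 0.25 and Col6a2 at -1.19 ± 0.24, with adjusted p-values of 0.0267 to 0.0381 for these 7. In each of the 8 the mean was higher with AQ on chow and lower with AQ on HFD.

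Group means show the crossing. Col4a1 was at 216 ± 64 CPM on chow and 328 ± 56 CPM with AQ, but at 292 ± 86 CPM on HFD and 163 ± 27 CPM with AQ. Col5a3 went from 48.7 ± 11 to 79.7 ± 11 CPM on chow and from 50.8 ± 20 to 22.6 ± 2.0 CPM on HFD. Col6a3 was at 82.0 ± 11 and 125 ± 21 CPM on chow and at 110 ± 33 and 68.8 ± 2.9 CPM on HFD.

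Cell type markers moved in the interaction too, with none called. All 6 adipocyte markers were below 0, with a median of -1.78 on the log2 scale, as were all 6 leukocyte markers, with a median of -0.76. Of 10 fibroblast markers 7 were below 0, with a median of -0.41. Their part in the collagen interaction was not tested.

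Most other chains had a negative interaction that was not called. Of all 38 chains 31 were below 0, and the median was -0.61 against 0.01 over all genes. FACITs gave -0.69 ± 0.24 for Col14a1, -0.74 ± 0.27 for Col22a1 and -0.61 ± 0.31 for Col16a1. The others were -0.61 ± 0.25 for Col7a1, -0.48 ± 0.33 for Col8a1 and -0.27 ± 0.26 for Col26a1, and the transmembrane chains -0.41 ± 0.30 for Col13a1 and 0.25 ± 0.26 for Col23a1. The number of calls changed with single libraries left out. Without the first or the third library of WT_HFD_AQ, or the second or the third of WT_NC_AQ, 0 chains were called. Of all genes 16, 3, 9 and 5 were then called, against 89 in the main fit. The count of chains was 1 without the first library of WT_HFD, 2 without the third of WT_NC and 3 without the second of WT_HFD_AQ. There 22, 48 and 35 of all genes were called. Plain CPM without the authors' scaling gave 1 call, and 32 of all genes. The 8 values kept their sign in each of these fits. With single libraries left out Col5a3 ran from -2.05 to -1.49 and Col5a1 from -1.34 to -0.95.

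**Figure D4:**
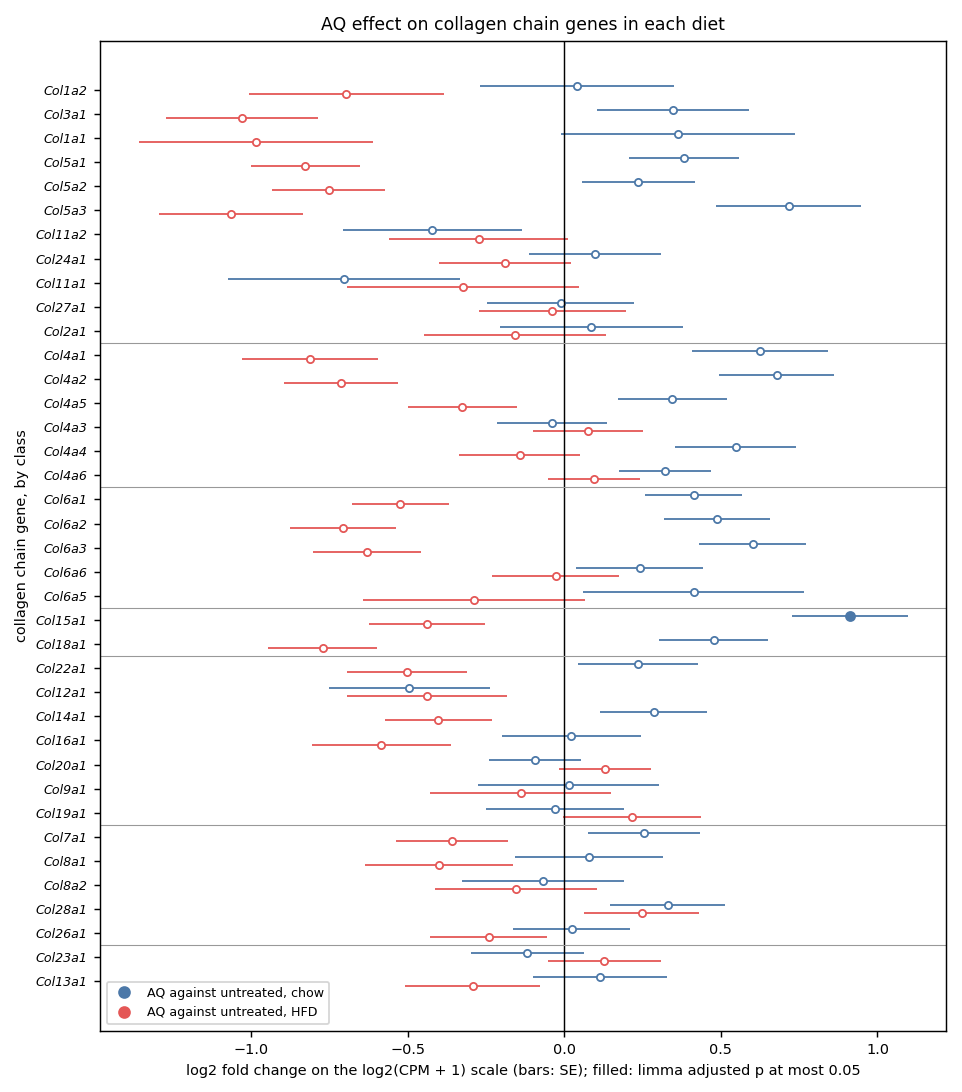
Log2 fold change (AQ over untreated) with SE for 38 collagen chain genes by class, on chow (blue) and on HFD (red); filled points passed limma's adjusted p of 0.05. Col15a1 on chow, at 0.91, is the only filled point; for types IV (Col4a1, Col4a2), VI (Col6a1 to Col6a3) and Col5a3 the blue and red points lie on opposite sides of 0.

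The Nurr1 transgene changed no collagen chain past the threshold. In limma 0 of 38 chains were called against HFD_WT, where 0.599% of all genes were, 2 had an unadjusted p under 0.05 (Col26a1 and Col23a1, with 8.95% of all genes), and edgeR and DESeq2 called 0. The median log2 fold change was -0.10 against -0.00 over all genes. No chain was higher in all transgenic libraries than in the controls, where 6.99% of all genes were, and 1, Col26a1, was lower, where 7.35% were. Summed tendon markers were 607 to 625 CPM in transgenic and 666 to 1087 CPM in control muscle, and their part was not tested. Without the first HFD_WT library the median was 0.02 and again 0 chains were called.

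Class by class, the fibrillar chains gave 0.37 ± 0.21 for Col24a1, -0.43 ± 0.37 for Col1a1 and -0.24 ± 0.23 for Col5a3 in transgenic against control muscle. Col1a1 was at 694, 440 and 435 CPM in transgenic libraries and at 1080, 542 and 562 CPM in the controls. In each of these groups the first library was the high one. Without the first HFD_WT library the value of Col1a1 was -0.11. Type IV gave -0.25 ± 0.19 for Col4a4, -0.14 ± 0.18 for Col4a3 and -0.10 ± 0.15 for Col4a6. Type VI gave 0.28 ± 0.20 for Col6a6, -0.48 ± 0.35 for Col6a5 and 0.16 ± 0.17 for Col6a3. Col6a5 was at 4.62 CPM in the first HFD_WT library and at 0.556 and 0.672 CPM in the other controls, and without that library its value was 0.12. The multiplexins Col15a1 and Col18a1 were at 0.05 ± 0.18 and -0.02 ± 0.17. FACITs gave -0.38 ± 0.19 for Col22a1, 0.38 ± 0.22 for Col19a1 and 0.29 ± 0.17 for Col14a1. Col26a1 was at -0.51 ± 0.19, Col7a1 at -0.32 ± 0.18 and Col8a1 at -0.26 ± 0.24, and the transmembrane Col23a1 and Col13a1 at -0.41 ± 0.18 and -0.14 ± 0.22.

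Wild-type mice on HFD entered the study as 2 groups, and 2 collagen chains were higher in the group that served as control of the transgene. HFD_WT against WT_HFD gave these 2 calls, where 2.78% of all genes were called higher. Col15a1 was at 138, 116 and 112 CPM in HFD_WT and at 92.5, 49.3 and 69.2 CPM in WT_HFD (0.82 ± 0.18, limma adjusted p = 0.0186), without overlap. Col26a1, a chain of low level, was at 2.38, 1.35 and 2.39 CPM against 1.11, 0.249 and 1.00 CPM (0.78 ± 0.19, adjusted p = 0.0253). The median log2 fold change of the chains was 0.33 against -0.00 over all genes, and 0.20 without the first HFD_WT library. With all libraries 32 chains were above 0, and 6 did not overlap and were higher, where 11.8% of all genes were. Any difference between the mouse sets of the study and a difference in diet response cannot be told apart in these labels.

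The number of calls between the 2 wild-type groups changed with single libraries left out. Without the first HFD_WT library 0 chains were called and Col15a1 was at 0.73, and without the second WT_HFD library 0 were called. Without the second or the third HFD_WT library 1 was called, and without the first WT_HFD library 8 were. Of all genes 304, 145, 214, 368 and 327 were called in these fits, in that order, against 559 in the main fit. Tendon marker sums were 666 to 1087 CPM in HFD_WT and 466 to 739 CPM in WT_HFD, which overlapped, with 6 of 8 markers above 0. Of 10 fibroblast markers 8 were below 0 (median log2 fold change -0.13), as were 5 of 7 mural markers (median -0.16). The part of these cell types was not tested. Chains that missed the threshold were Col5a3 (0.79 ± 0.23), Col1a1 (1.02 ± 0.37) and Col5a1 (0.43 ± 0.17) among fibrillar collagens, and Col4a2 (0.50 ± 0.18), Col4a6 (0.26 ± 0.15) and Col4a1 (0.33 ± 0.22) in type IV. Type VI gave 0.60 ± 0.17 for Col6a2 (limma adjusted p = 0.0514), 0.49 ± 0.16 for Col6a1 and 0.52 ± 0.17 for Col6a3. FACITs gave 0.50 ± 0.19 for Col22a1, 0.42 ± 0.22 for Col16a1 and 0.41 ± 0.29 for Col9a1, and the transmembrane Col23a1 and Col13a1 0.33 ± 0.18 and 0.22 ± 0.22. Without the first HFD_WT library Col16a1 was at 0.17 and Col9a1 at 0.62.

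Chains of the same or a neighbouring fibril or network were compared as a ratio of CPM per exonic base in each library. Type I collagen is built from 2 Col1a1 chains and 1 Col1a2 chain. Their ratio was 0.832 to 0.881 in HFD_WT and 0.738 to 0.857 in transgenic muscle, above the 0.471 to 0.724 of the 12 libraries of the AQ experiment. Within that experiment it was 0.707 ± 0.025 (SD, n = 3) on chow with AQ, 0.569 ± 0.088 on chow, 0.616 ± 0.069 on HFD and 0.502 ± 0.023 on HFD with AQ. Libraries on chow with AQ and on HFD with AQ did not overlap. The ratio of Col3a1, which forms trimers of its own, to Col1a1 moved from 0.675 in the first HFD_WT library to 1.67 in the third WT_NC library.

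Col4a1 and Col4a2, whose starts overlap and whose chains form the classical type IV trimer, kept the tightest ratio of the pairs examined. It lay between 1.18 and 1.48 in all 18 libraries, with an SD of 0.0822 on the log2 scale, while the log2 levels of the 2 genes each had an SD of 0.50. By contrast the other head-to-head pairs, at much lower levels, had ratio SDs of 0.397 (Col4a3 over Col4a4) and 0.493 (Col4a5 over Col4a6), where counting error is larger. In type VI, Col6a1 over Col6a2 had an SD of 0.139 and Col6a3 over Col6a1 of 0.125.

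Type V chains did not keep a fixed ratio. The ratio of Col5a3 to Col5a1 was 1.43 ± 0.041 on chow with AQ and 0.804 ± 0.081 on HFD with AQ, and the libraries of these groups lay far apart, at 1.39 to 1.46 and 0.715 to 0.874. On chow it was 1.14 ± 0.20, on HFD 0.966 ± 0.17, in HFD_WT 1.24 ± 0.065 and in transgenic muscle 0.962 ± 0.10. The ratio of Col5a1 to Col5a2 ranged from 0.675 to 1.14. No test was made on these ratios.

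**Figure D5:**
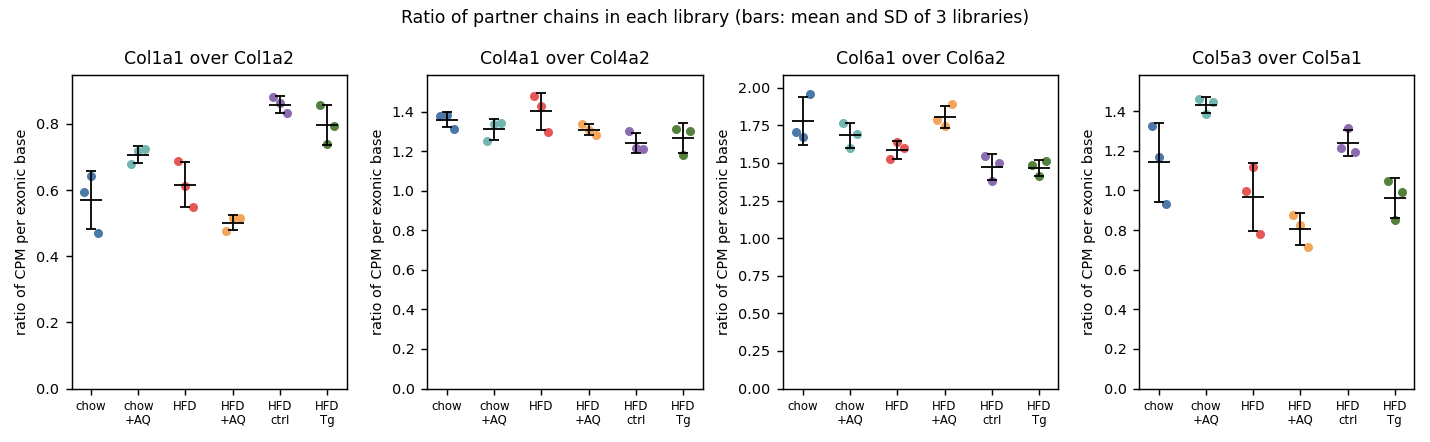
Ratio of CPM per exonic base between partner chains (Col1a1 over Col1a2, Col4a1 over Col4a2, Col6a1 over Col6a2, Col5a3 over Col5a1) in each library by group; points are libraries and bars the mean and SD of 3. Col4a1 over Col4a2 stays between 1.18 and 1.48, while Col5a3 over Col5a1 is 1.43 on chow with AQ and 0.804 on HFD with AQ.

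Genes that make, process, bind and degrade collagen, or act in TGF-beta signalling, were read from 6 lists. In diet under AQ, where collagens fell, limma called 711 of all 12524 genes tested lower (5.68%) and 613 higher. Of 17 genes of synthesis in the cell 1 was lower, a share near that of all genes, and 0 were higher. It was Plod3, a lysyl hydroxylase (-0.44 ± 0.10, limma adjusted p = 0.0108). Of 12 genes of processing and crosslinking 3 were lower and 0 higher: the lysyl oxidases Loxl1 (14.3 ± 0.62 against 30.6 ± 4.4 CPM, -1.04 ± 0.15, adjusted p = 0.000455) and Loxl2 (-0.92 ± 0.22) and the procollagen processing enhancer Pcolce (-0.56 ± 0.15). Among 11 genes of degradation and its inhibitors 3 were lower, the metalloproteinases Mmp9 (-1.30 ± 0.23), Mmp15 (-0.55 ± 0.10) and Mmp14 (-0.93 ± 0.20), and 1 was higher, the inhibitor Timp3 (0.57 ± 0.11).

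Receptors and fibril partners were mixed in the same comparison, where 5.68% of all genes were called lower and 613 of 12524 higher. Of 10 receptors the dystroglycan gene Dag1 (-0.40 ± 0.07) and the collagen-binding integrin Itga11 (-0.59 ± 0.15) were lower and Itga1 (0.48 ± 0.11) was higher. Of 13 partners in fibril assembly 3 were lower, fibronectin Fn1 (101 ± 2.7 against 164 ± 12 CPM, -0.69 ± 0.12, limma adjusted p = 0.00221), Prelp (-0.47 ± 0.14) and Thbs1 (-1.14 ± 0.35), and lumican, Lum, was higher (0.47 ± 0.14). In the TGF-beta list, a pathway known to drive collagen transcription, 1 of 13 genes was called lower, Smad3 (-0.59 ± 0.17), and 1 was called higher. In the interaction, where 0.583% of all genes were called lower, Loxl1 (-1.25 ± 0.21, adjusted p = 0.0223) and Fn1 (-0.98 ± 0.18, adjusted p = 0.0253) were also called. No other gene of the 6 lists was, and those nearest were Plod3 (-0.49 ± 0.14), P4ha2 (-0.49 ± 0.19), Mmp14 (-1.10 ± 0.28), Mmp15 (-0.46 ± 0.15), Itga11 (-0.76 ± 0.22), Dag1 (-0.30 ± 0.09), Tgfb1 (-0.46 ± 0.20) and Tgfb3 (-0.36 ± 0.16).

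In HFD_WT against WT_HFD 6 of the 75 list genes were called, all higher, where 2.78% of all genes were called higher. They were Loxl1 (0.56 ± 0.15), Mmp15 (0.60 ± 0.10), Dag1 (0.35 ± 0.07), Fn1 (0.45 ± 0.12), Tgfb2 (0.54 ± 0.10) and Tgfb1 (0.50 ± 0.14), with limma adjusted p-values of 0.00362 to 0.0498. None of the synthesis list was, with Plod3 at 0.36 ± 0.10 and Lepre1 at 0.26 ± 0.09.

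No list gene was called by limma for diet, AQ on HFD, AQ on chow or the transgene. Of the 75 list genes tested, 15, 25, 20 and 6 had an unadjusted p under 0.05 in these comparisons. Of all 12524 genes tested, 1193, 1474, 1942 and 1121 had. edgeR called 0, 0, 1 and 0 of the list genes, and 5, 6, 146 and 81 of all genes. DESeq2 called 1, 4, 3 and 0 of the list genes, and 47, 140, 284 and 171 of all genes. The values with the smallest p for diet were Leprel4 (0.33 ± 0.13), Crtap (0.31 ± 0.15), Lox (0.57 ± 0.30), Loxl3 (0.26 ± 0.15), Fap (0.46 ± 0.13), Ctsk (0.61 ± 0.24), Itgb1 (0.26 ± 0.06), Itga1 (0.34 ± 0.11), Lum (0.46 ± 0.14), Bgn (0.53 ± 0.18) and Smad3 (-0.46 ± 0.17). For AQ on HFD they were Colgalt2 (0.40 ± 0.12), the collagen chaperone Serpinh1 (-0.54 ± 0.19), Loxl1 (-0.62 ± 0.15), Loxl2 (-0.81 ± 0.22), Mmp14 (-0.47 ± 0.20), Timp1 (-0.76 ± 0.33), Itgb1 (-0.19 ± 0.06), Itga1 (0.30 ± 0.11), Dpt (-0.50 ± 0.10), Fn1 (-0.53 ± 0.12), Tgfbr2 (0.25 ± 0.09) and Tgfb3 (-0.30 ± 0.11). Of these Dpt came nearest the threshold (limma adjusted p = 0.0712).

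With AQ on chow the nearest were Plod3 (0.37 ± 0.10), Plod1 (0.16 ± 0.08), Loxl1 (0.62 ± 0.15, limma adjusted p = 0.0502), Pcolce (0.35 ± 0.15), Mmp15 (0.34 ± 0.10), Mmp14 (0.63 ± 0.20), Itga11 (0.51 ± 0.15), Dag1 (0.19 ± 0.07), Fn1 (0.45 ± 0.12), Prelp (0.37 ± 0.14), Tgfb1 (0.45 ± 0.14) and Tgfb2 (0.23 ± 0.10). With the transgene they were Leprel1 (-0.18 ± 0.19), Glt25d1 (0.05 ± 0.06), Lox (-0.68 ± 0.30), Pcolce2 (-0.13 ± 0.16), Mmp9 (0.43 ± 0.23), Fap (0.17 ± 0.13), Ddr1 (-0.34 ± 0.17), Cspg4 (0.15 ± 0.14), Fmod (-0.53 ± 0.20), Tnxb (0.25 ± 0.10), Ctgf (-1.19 ± 0.29) and Ltbp1 (0.41 ± 0.12). Ctgf, a matricellular growth factor, had an adjusted p of 0.0836.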

How the data were processed

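The table gives a signal per gene and library: scaled CPM, deposited by the authors, who name TopHat2 2.0.12 and edgeR with builds GRCm38 and mm10 per the submitters' processing notes. No source here names the counter, strand use or gene filter. Reads were recovered from the values, all whole within 1e-06 reads. The 12524 genes reaching 1 CPM in 3 or more libraries entered limma 3.58.1 in R 4.3.3 (lmFit, eBayes with trend, two-sided) on log2(CPM + 1), with 6 groups in a single fit and 12 residual degrees of freedom. Fold changes on this scale understate changes of low genes. Adjusted p-values are Benjamini-Hochberg over all genes tested, with a threshold of 0.05. edgeR 4.0.16 (quasi-likelihood) and DESeq2 1.42.0 on recovered reads, other pseudocounts, filters, scalings, variance models, a replicate block and leaving out libraries were alternatives. The fit was also run on simulated reads with the same dispersion for every gene, so that run does not represent how the spread differs between genes. The members and lists were chosen with earlier results of these data known. Named are all called chains, otherwise up to 3 per class by smallest p; from pathway lists up to 4 called genes, otherwise 2, except that 1 gene is not reported here. Exon lengths are from GENCODE M21. Floors cover counting error only. Whether the replicates come from separate mice is not stated beyond their label, so p-values measure the spread between these libraries.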

Additional observations from a re-analysis of the deposited data

Results flagged for a closer look

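For 8 chains the AQ effect on HFD differed from that on chow in the test of the difference itself (limma interaction, adjusted over all genes). The differences on the log2 scale, with the AQ effect on HFD minus that on chow, were -1.78 for Col5a3, -1.44 for Col4a1, -1.39 for Col4a2, -1.35 for Col15a1, -1.25 for Col18a1, -1.23 for Col6a3, -1.21 for Col5a1 and -1.19 for Col6a2. Each mean was higher with AQ on chow and lower with AQ on HFD. They kept their sign in all fits run, and the number of chains called ranged from 0 to 11 when single libraries were left out. Of all genes 3 to 103 were called in those fits. In the same interaction all 6 adipocyte and all 6 leukocyte markers were below 0 (medians -1.78 and -0.76), and their part was not tested.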

How the results depend on the processing

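The counts below are of collagen chains called, except where all genes are named. In the main fit 6 of all 12524 genes were called for AQ on HFD and 139 for AQ on chow. The interaction had 89 and the wild-type HFD groups 559. With DESeq2, 9 were called for AQ on HFD, 3 for AQ on chow and 4 between the 2 wild-type HFD groups. Of all genes it called 140, 284 and 751. With plain CPM 0 were called for AQ on chow and 1 for the interaction, with 43 and 32 of all genes. Without the variance trend they were 0 and 2, with 52 and 31 of all genes. With only the groups compared in the fit, 0 were called for AQ on chow and 0 between the wild-type HFD groups. Of all genes 12 and 96 were. Leaving out the first library of each group was an alternative chosen after seeing the data. There 6 were called for AQ on chow and 7 between the wild-type HFD groups, with 61 and 140 of all genes. With single libraries left out, the counts were 0 throughout for diet and the transgene, 0 to 8 for AQ on HFD, 0 to 2 for AQ on chow, 10 to 11 for diet under AQ, 0 to 11 for the interaction, 0 to 8 between the wild-type HFD groups and 16 to 21 for any group difference. In the same fits 0 to 40 of all genes were called for diet and 43 to 72 for the transgene. For AQ on HFD 0 to 224 were, for AQ on chow 13 to 113 and for diet under AQ 573 to 1130. For the interaction 3 to 103 were, between the wild-type HFD groups 145 to 748 and for any group difference 1853 to 2826. The cause of these changes in count was not tested. The 22 called values gave 442 recomputed values, of which 352 kept the call, 90 lost it and 0 changed sign. Many of these came from the same alternative fits, which the chains share.

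With the replicate number as a block, 4 chains were called for AQ on HFD and 2 for AQ on chow. Of all genes 49 and 120 were called there, against 6 and 139 in the main fit. The other counts of chains stayed within 1.5 times. Deviations of same-numbered libraries correlated at -0.214 to 0.306, and in no comparison did all 3 pairs exceed 0.1. With 3 libraries per group this cannot decide whether libraries of the same number share an effect.

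Small values that were not called changed sign 19 times, counting each chain, comparison and alternative fit apart. With single libraries left out, the log2 values ran from -0.16 to 0.099 (diet), -0.012 to 0.26 (AQ on HFD) and -0.20 to 0.024 (AQ on chow) for Col23a1. For AQ on chow they ran from -0.039 to 0.39 for Col22a1, -0.23 to 0.30 for Col8a1 and -0.034 to 0.32 for Col13a1. For the transgene they ran from -0.80 to 0.12 for Col6a5, -0.13 to 0.17 for Col15a1, -0.15 to 0.15 for Col18a1 and -0.44 to 0.01 for Col13a1. Without all first libraries Col22a1 gave -0.10 and Col13a1 -0.031 for AQ on chow, and Col15a1 -0.036 and Col18a1 0.045 for the transgene, where plain CPM gave 0.014 for Col18a1. Depth limits the chains whose libraries lie near 3 reads, Col2a1, Col6a5 and Col26a1.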
